A study of Mus musculus with 10 samples.

Results

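Open chromatin in MYC-driven liver tumours with homozygous loss of Arid1a (Homo) was compared with that in tumours whose Arid1a was intact (WT). The assay was ATAC-seq, which uses a transposase to tag accessible DNA. The comparison used the peak lists of 3 Homo and 4 WT libraries, 7 of the 10 libraries of the series, and left out the 3 Het lists. Overlapping peaks of a list were merged, the 7 lists were joined on the autosomes and X, and a list held a region when it overlapped it by at least 1 bp. This gave 12147 regions.

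All tumours came from mice of strain FVB that carried LAP-tta, a doxycycline-repressed activator under a liver promoter, and TRE-MYC, the MYC transgene it switches on once doxycycline water is removed. Both groups also carried floxed Arid1a. WT tumours (LAP-tta-Arid1aflfl;TRE-MYC, about 55 days old) had no Cre, so their floxed alleles stayed whole. Homo tumours (LAP-tta and TRE-MYC with Arid1afl/fl and Alb-cre, about 100 days old) had Cre under the albumin promoter, which acts in cells of the hepatocyte lineage, so other cells of the tumour keep Arid1a. Tumours were taken at death and frozen. Age, Cre and loss of Arid1a changed together, and their effects cannot be told apart here. The labels number the replicates without saying that each is a separate mouse, so p-values reflect only how these libraries vary, which may be technical.

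ARID1A is the DNA-binding subunit of the canonical BAF form of the SWI/SNF complex, an ATP-driven machine that slides and evicts nucleosomes. In many tissues the complex keeps enhancers open, while promoters rich in CpG depend on it less. In liver, ARID1A is recurrently mutated in hepatocellular carcinoma, and mouse work has described opposite roles for it early and late in the disease. The series asks how its loss bears on tumour initiation, progression and metastasis.

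The Homo libraries were not alike, and this bears on every result below. Homo 1 held 3863 regions, Homo 2 held 1748 and Homo 3 held 9587, whereas the WT lists held 9526, 8355, 6731 and 8490. The lowest and the highest of the 7 values were thus both Homo lists. Homo 3 resembled the WT lists in length, overlap and ranks, and nothing in the peak lists shows whether its Arid1a was deleted. The peak lists also gave the depth of each library, as background tags per 200 bp. Depth was 1.75, 1.13, 0.985 and 1.40 in WT 1 to WT 4, and 0.914, 0.464 and 1.61 in Homo 1 to Homo 3. Homo 2 was the shallowest library and Homo 3 the second deepest, so list length and depth moved together, and the part of depth in the results was tested only by scaling the lists to a common depth.

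**Figure D1:**
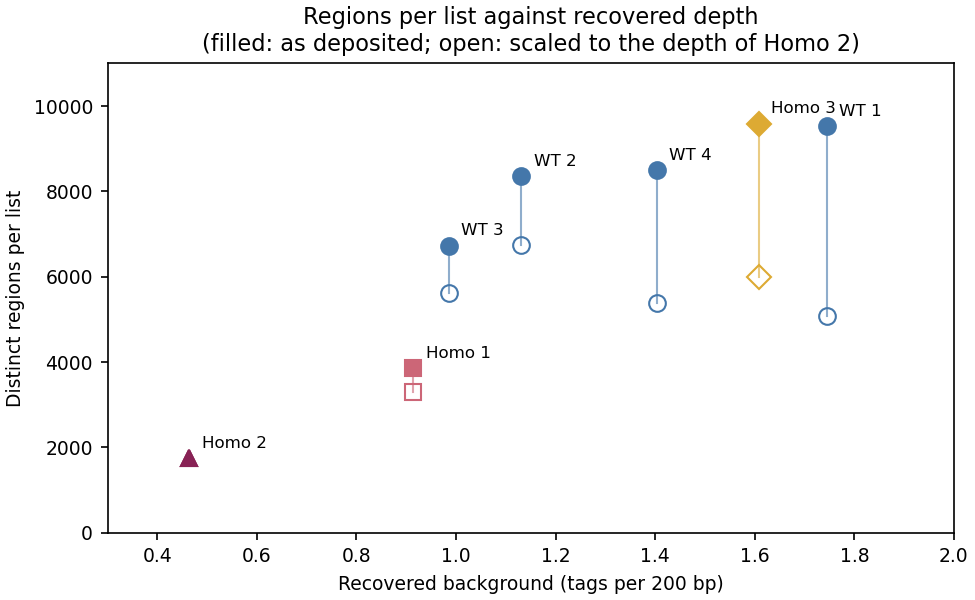
Distinct regions per list (vertical axis) against the recovered background in tags per 200 bp (horizontal axis), 1 point per library; filled symbols are the lists as deposited and open symbols the lists scaled to the depth of Homo 2. Homo 3 (9587 regions) sits beside WT 1 (9526 regions), and Homo 1 stays below every WT list after scaling.

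Few regions separated all Homo from all WT lists, so the sequences at issue can be shown directly. Regions in 4 of 4 WT and 0 of 3 Homo lists (WT-only) numbered 35, which is 0.288% of the 12147 regions. Those in 3 of 3 Homo and 0 of 4 WT lists (Homo-only) numbered 2, or 0.0165%. These are counts of presence, and single regions were not tested for it. The sequences below are the 150 bases before the annotated start of the gene, 5′ to 3′ on the gene's strand, from the RefSeq table for GRCm38.p6, whose coordinates are those of mm10. Capitals mark exact matches to a searched motif, and a match is a description only.

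The first 4 belong to WT-only regions at genes with well-known jobs in the cell. They lie at chr11:73138295-73138444 on the minus strand (Haspin), chr5:96209965-96210114 on the plus strand (Mrpl1), chr8:111933814-111933963 on the minus strand (Tmem231) and chr6:112696671-112696820 on the minus strand (Rad18). The capitals are an ETS match in Haspin, a GC box in Mrpl1 and an inverted CCAAT box in Tmem231, and Rad18 has no match in this window.
Haspin: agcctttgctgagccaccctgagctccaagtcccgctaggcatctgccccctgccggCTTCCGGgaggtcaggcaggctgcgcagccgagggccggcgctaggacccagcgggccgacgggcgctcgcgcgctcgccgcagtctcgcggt
Mrpl1: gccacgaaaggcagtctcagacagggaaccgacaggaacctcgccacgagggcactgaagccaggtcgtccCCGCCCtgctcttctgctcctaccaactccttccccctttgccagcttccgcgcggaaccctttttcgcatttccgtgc
Tmem231: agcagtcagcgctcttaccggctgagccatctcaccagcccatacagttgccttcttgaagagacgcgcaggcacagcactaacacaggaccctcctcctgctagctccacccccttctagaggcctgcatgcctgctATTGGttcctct
Rad18: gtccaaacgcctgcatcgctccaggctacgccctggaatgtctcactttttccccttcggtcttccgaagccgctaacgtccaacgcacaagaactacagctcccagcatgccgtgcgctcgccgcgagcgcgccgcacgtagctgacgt

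The next belongs to the 1 Homo-only region at a gene end, at AW209491, chr13:14630095-14630244 on the plus strand. Its capitals mark a GC box.
AW209491: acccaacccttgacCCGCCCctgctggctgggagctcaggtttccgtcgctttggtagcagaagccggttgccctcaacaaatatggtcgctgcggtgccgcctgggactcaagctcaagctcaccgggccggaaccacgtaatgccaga

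The last 2 belong to regions that all 7 lists held but that ranked lower in every Homo list than in any WT list, at Abcf2 (chr5:24577468-24577617, minus strand) and Nelfa (chr5:33936272-33936421, minus strand). Capitals mark 1 GC box in Abcf2 and 2 in Nelfa. Neither rank change passed the threshold with all 7 lists (limma, adjusted p = 0.593 for each).
Abcf2: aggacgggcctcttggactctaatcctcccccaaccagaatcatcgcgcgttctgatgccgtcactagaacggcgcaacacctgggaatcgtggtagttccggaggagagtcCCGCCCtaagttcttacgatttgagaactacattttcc
Nelfa: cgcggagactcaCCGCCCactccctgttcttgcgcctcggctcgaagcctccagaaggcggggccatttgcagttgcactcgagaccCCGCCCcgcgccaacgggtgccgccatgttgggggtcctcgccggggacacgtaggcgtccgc

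Of the 35 WT-only regions, 25 were gene-end regions (within 1000 bp of either end of a protein-coding gene), 7 lay inside genes and 3 were intergenic. They made 27 of 21631 genes WT-only by their gene-end regions, or 0.125%, against 1 Homo-only gene, or 0.00462%. On a scale where 100 is the strongest peak of a list, their median rank percentile over the WT lists was 35.9, below the middle. The count rests on Homo 3. Without that library 2104 regions of 11524 (18.3%) were in 4 of 4 WT and in neither other Homo list. It was 54, 63 and 118 without WT 1, WT 2 and WT 3, and 67 without Homo 1.

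Haspin encodes the kinase that phosphorylates histone H3 in mitosis. Its region (chr11:73138133-73138469) covered the annotated start and had deposited folds over local background of 7.67, 6.45, 6.94 and 6.88 in WT 1 to WT 4, with no call in any Homo list. Mrpl1, a protein of the large mitochondrial ribosomal subunit, had folds of 7.97, 7.78, 6.02 and 5.93 in the WT lists. Tmem231, a component of the transition zone at the base of the primary cilium, had 7.93, 6.97, 6.30 and 6.12. Rad18, which ubiquitinates PCNA at stalled replication forks, had 5.80, 7.98, 6.5 and 6.02. All 4 were called in every WT list and in no Homo list, the range of their folds running from 5.80 to 7.98. With the lists scaled to the depth of Homo 2, Haspin and Tmem231 stayed in 4 WT lists, Mrpl1 in 3 and Rad18 in 2.

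The same pattern held at genes of other kinds. Among gene-end regions the highest median WT percentile was at Cklf, a chemokine-like factor, with folds of 4.49, 7.41, 8.10 and 7.85, so WT 1 was the weak one. Ramac, the activating subunit of the mRNA cap methyltransferase, had 6.35, 8.65, 5.60 and 7.32. Klc3, a kinesin light chain, had 8.38, 6.55, 6.52 and 5.82. These 3 regions covered the annotated starts of their genes. Dynlt1f (a dynein light chain), the shared region of Htd2 and Rpp14, and those at Capn5 (a calpain protease), Lonp1 with Rpl36, Nans (the sialic acid synthase) and Plekha7 (a protein of adherens junctions) complete the 12 WT-only gene-end regions with the highest WT percentile, with folds from 4.36 to 8.21.

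The other 10 WT-only regions lay away from gene ends. The strongest was inside Mcmbp, which encodes a partner of the MCM replication helicase, at chr7:128699896-128700167, with folds of 8.87, 12.1, 11.3 and 8.32. Its folds in WT 2 and WT 3 were the highest of any WT-only region. A region inside Zbtb20, a zinc-finger repressor known in liver for silencing Afp, had 6.83, 7.08, 6.25 and 5.74 at chr16:43069890-43070196, and 1 inside Agpat2, an enzyme of triglyceride synthesis, had 5.56, 5.10, 5.56 and 6.21. Intergenic regions nearest Nudt4 (6.91, 6.75, 6.67 and 6.16) and Ywhag (6.11, 5.71, 5.93 and 4.84) had narrow ranges. Another region lay inside Auts2. Of these 10 regions, 3 (in Myo5a, Tpst1 and Abcc4) were within 1000 bp of an annotated start that is not the outer end of the gene, as were 834 of all 3861 regions away from gene ends.

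The 2 Homo-only regions were 1 at a gene end and 1 between genes. At AW209491 the region chr13:14630057-14630538 had folds of 7.48 in Homo 1, 7.14 in Homo 2 and 5.37 in Homo 3. The intergenic one, chr15:60141794-60142042, had folds of 5.75, 6.83 and 6.13. Its nearest listed gene lay 125176 bp away. The count of 2 was 7 without Homo 1, 30 without Homo 2, 7 without Homo 3 and 4 without WT 2.

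Loss of regions in Homo was mostly a matter of 2 of the 3 libraries. Of the 5177 regions that all 4 WT lists held, Homo 1 held 2721 (52.6%), Homo 2 held 1384 (26.7%) and Homo 3 held 5087 (98.3%). In all, 1015 (19.6%) were in every Homo list, 1657 (32.0%) in Homo 1 and Homo 3 alone, 346 (6.68%) in Homo 2 and Homo 3 alone and 2069 (40.0%) in Homo 3 alone. Few were missing from Homo 3 and present in another Homo list: 32 in Homo 1 alone, 6 in Homo 2 alone and 17 in both.

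Regions that were strong in WT were held more often. The 5177 regions were divided into 10 bins of like size by median WT rank. In the weakest bin Homo 1 held 32.4%, Homo 2 held 12.4% and Homo 3 held 94.0%. In the strongest bin the shares were 82.4%, 64.5% and 99.2%. The share climbed from bin to bin in Homo 1 and Homo 2, with 1 small step down in Homo 1, and stayed between 94.0% and 99.8% in Homo 3.

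**Figure D2:**
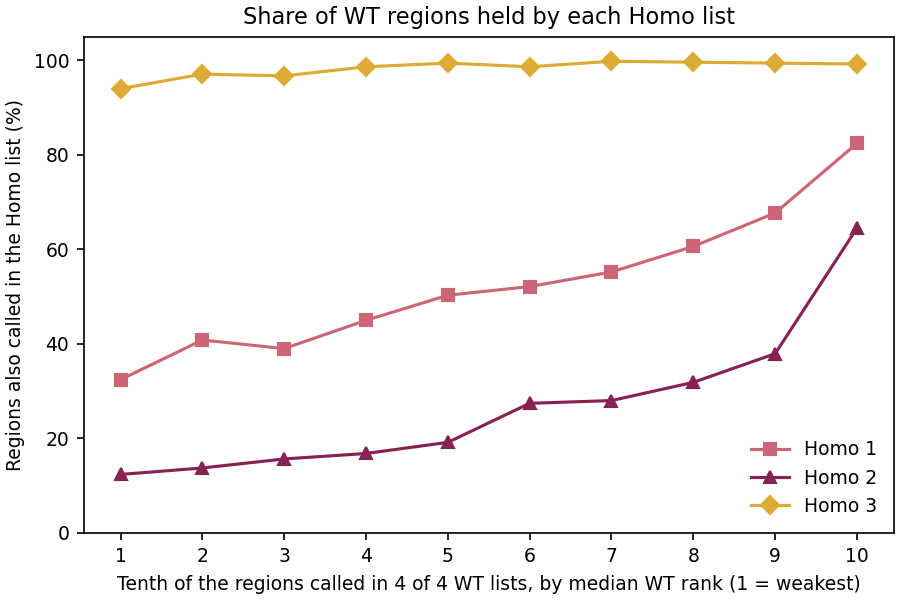
Share of the regions called in 4 of 4 WT lists that each Homo list also held (vertical axis, percent), by bin of the median WT rank from weakest (1) to strongest (10) (horizontal axis), 1 line per Homo list. Homo 3 stays above 90 throughout, while Homo 1 goes from 32.4 to 82.4 and Homo 2 from 12.4 to 64.5.

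The strongest WT regions that Homo 1 and Homo 2 both missed were kept by Homo 3 at like folds. At the start of Atp5g2, which encodes a subunit of mitochondrial ATP synthase, folds were 7.93, 8.79, 9.88 and 10.6 in WT and 9.45 in Homo 3. Chchd3, a protein of the mitochondrial cristae, had 10.1, 9.67, 9.92 and 8.28 in WT and 10.3 in Homo 3. Kifc1, a mitotic kinesin, had 8.94, 10.2, 8.80 and 9.59 in WT and 10.2 in Homo 3. The Homo 3 fold lay inside the WT range at Atp5g2 and just above it at Chchd3 and Kifc1. Tpp2 (a peptidase), Taf15 (an RNA-binding protein), Hsdl2, Oxsr1 (a stress-responsive kinase) and a region inside Chrnb1, near its start and close to Fgf11, showed the same presence, with Homo 3 folds from 7.93 to 10.1. The 2 intergenic members of this group had as nearest genes Gm40363 and Gata6. At the latter, folds were 10.6, 10.3, 11.1 and 13.7 in WT and 7.20 in Homo 3, below every WT list.

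Retention was also computed so that WT lists could be compared with Homo lists on the same footing: the share of the regions in 3 other WT lists that a list held. It was 97.5%, 93.7%, 81.3% and 95.4% for WT 1 to WT 4, and 50.4%, 25.4% and 97.5% for Homo 1 to Homo 3. Both short Homo lists lay below every WT list, and Homo 3 was level with the highest. Regions per list averaged 8276 ± 1155 in WT (SD, n = 4) and 5066 ± 4056 in Homo (SD, n = 3), a difference of -3210 (exact permutation test, two-sided, p = 0.257, with 0.0286 the smallest p that 35 splits allow). The difference was -5470 without Homo 3 (exact p = 0.0667, the smallest then possible) and -1551 without Homo 2. Covered length was 3.89, 3.23, 2.56 and 3.51 Mb in WT and 1.36, 0.499 and 4.16 Mb in Homo (exact permutation p = 0.286).

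Scaled to the depth of Homo 2, the WT lists held 5092, 6740, 5624 and 5395 regions and the Homo lists 3296, 1748 and 5992. Homo 1 and Homo 2 stayed below all WT lists and Homo 3 lay within them (exact permutation p = 0.171). Homo 1 and WT 3 had like depths before scaling (0.914 and 0.985), with 3863 and 6731 regions. Library quality other than depth was not measured, so a missing peak need not mean a loss of open chromatin. Where there was such a loss, fewer cells with an open region and less opening per cell cannot be told apart in bulk tissue.

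Because enhancers are the elements known to rely most on ARID1A, gene-end and distal regions were compared. Homo 1 held 51.2% of the gene-end regions of 4 of 4 WT lists, 54.2% of those inside genes and 65.5% of the intergenic ones. For Homo 2 the shares were 23.7%, 32.6% and 52.99%, and for Homo 3 98.6%, 97.6% and 95.4%. Distal regions were thus held more often than gene-end regions in Homo 1 and Homo 2 and slightly less often in Homo 3. Distal regions were not shown to be enhancers. No filter for repeats or artefact-prone sites was applied here, and the part of such sites in these shares was not tested. The median WT percentile was 62.2 at gene ends, 61.8 inside genes and 77.4 in intergenic regions.

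With strength matched over 10 bins of WT rank, the gap (distal minus gene-end share held) was -1.16, -1.56, -9.16 and -2.21 percentage points in WT 1 to WT 4. It was 2.44, 11.6 and -2.74 in Homo 1 to Homo 3, so the groups overlapped. The mean gap was higher in Homo by 7.29 points (exact permutation test, two-sided, p = 0.143, and 0.321 after Benjamini-Hochberg adjustment over the 5 tests on list-level values). It was 10.6 without Homo 3 (exact p = 0.0667), 3.37 without Homo 2 and 2.45 with lists of equal length. The gene-end share of all regions was 71.8%, 74.4%, 79.5% and 77.0% in WT and 77.3%, 70.1% and 73.4% in Homo, overlapping groups (exact permutation p = 0.457).

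Pairwise similarity set Homo 3 with the WT lists. The Jaccard index (shared over combined length) was 0.459 to 0.571 between WT lists and 0.457 to 0.611 between Homo 3 and WT lists. It was 0.234 to 0.295 for Homo 1 with WT lists, 0.111 to 0.144 for Homo 2 with WT lists, and 0.187, 0.225 and 0.103 for Homo 1 with 2, 1 with 3 and 2 with 3. Mean similarity was 0.400 within groups and 0.312 between them (difference 0.0882, exact permutation test, one-sided, p = 0.143). Without Homo 3 the difference was 0.274 (exact p = 0.0667). It was 0.0242 with lists of equal length (exact p = 0.2), and 0.0269, 0.0253 and 0.0252 without WT 1, WT 2 and WT 4.

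Ranks were compared within the 1015 regions called in all 7 lists, so that each list gave the same number of values; the shortest lists set which regions these are. Across these regions, which are not independent replicates and share their library, Spearman's rho was 0.589 to 0.677 between WT lists. Homo 3 had 0.718 with WT 1, above every WT pair, and 0.557 to 0.641 with the other WT lists. Homo 1 and Homo 2 had 0.546 with each other, above each one's value with every WT list (0.381 to 0.534). Homo 3 had 0.288 with Homo 1 and 0.322 with Homo 2, the lowest of all pairs. Within-group rho exceeded between-group rho by 0.0372 (exact permutation test, one-sided, p = 0.2), and by 0.168 without Homo 3 (exact p = 0.0667). The order turned without WT 1 (-0.0112), WT 2 (-0.0111) or WT 4 (-0.0121).

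**Figure D3:**
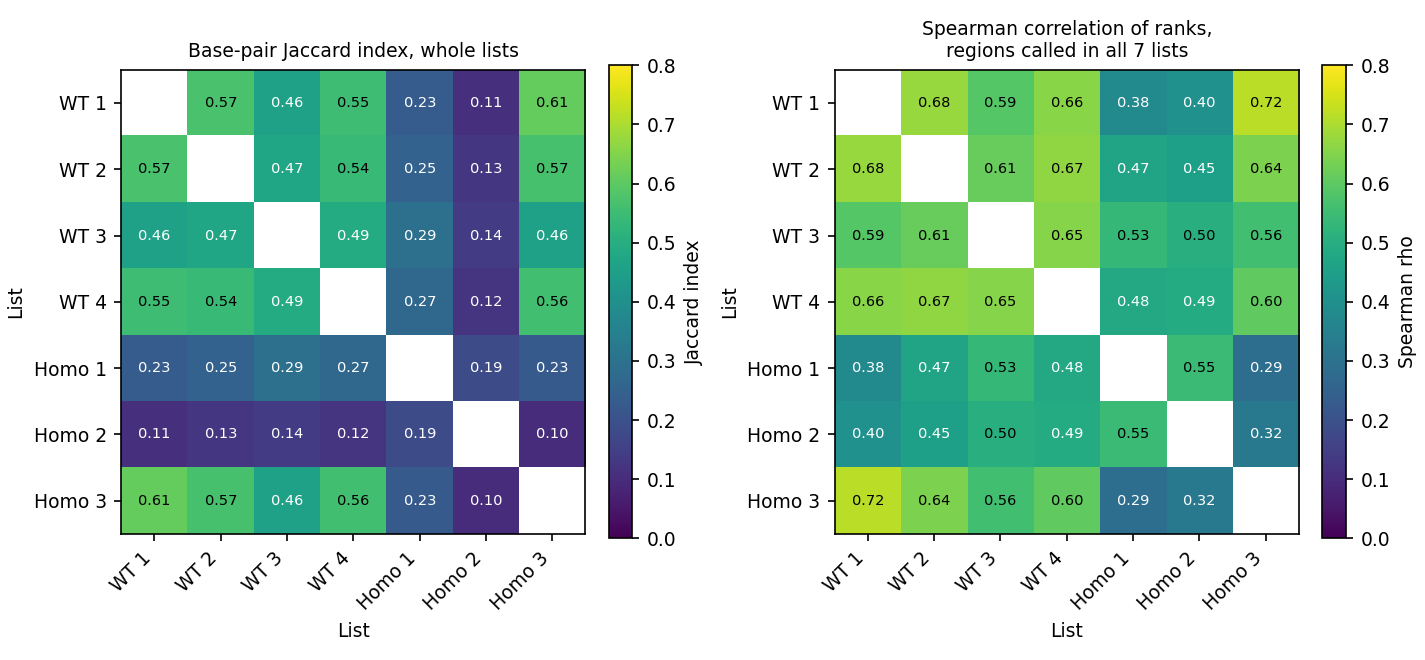
Base-pair Jaccard index over whole lists (left) and Spearman's rho of ranks over the 1015 regions called in all 7 lists (right), colour scale 0 to 0.8, for each pair of lists. The row of Homo 3 resembles the WT rows (rho 0.718 with WT 1), and its cells with Homo 1 and Homo 2 are the darkest of the rho panel (0.288 and 0.322).

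Shared regions had lower deposited folds and smaller called widths in Homo 1 and Homo 2. These were the shallowest libraries (0.914 and 0.464 tags per 200 bp) and Homo 3 the second deepest (1.61). Neither measure was scaled to a common depth, so the part of depth in these values was not tested. Median fold over the 1015 regions was 7.71, 7.84, 7.24 and 7.73 in WT 1 to WT 4, and 6.69, 6.38 and 8.33 in Homo 1 to Homo 3. Median width was 501, 448, 440 and 501 bp in WT and 361, 273 and 509 bp in Homo. On both measures Homo 3 was above every WT list and the other 2 Homo lists were below. At gene ends the median folds were 7.49, 7.60, 7.04 and 7.55 in WT and 6.42, 6.25 and 8.23 in Homo. Inside genes they were 8.14, 8.33, 7.72 and 8.15 in WT and 7.50, 7.07 and 8.61 in Homo. In the 168 intergenic regions they were 9.38, 9.93, 10.1 and 10.9 in WT and 10.6, 9.65 and 9.42 in Homo, overlapping groups. This contrast between classes was not tested, and it was picked after its values were seen.

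Changes of rank did not pass the test. limma on normal scores of the within-list ranks called 0 of 1015 regions (0%) at a Benjamini-Hochberg adjusted p below 0.05, and the smallest adjusted p was 0.436. Unadjusted p was below 0.05 for 52 regions (5.12%). limma on quantile-normalised log2 folds also called 0, with 49 unadjusted. The WT ranks lay above all Homo ranks in 31 regions (3.05%) and below them in 22 (2.17%). Of the 35 splits of the lists, 1 separates the groups in a given direction, a share of 0.0286. Both counts are near that share, so separation of a single region means little. Without Homo 3, 7 of 1029 regions (0.680%) passed, 6 lower and 1 higher in Homo, with 175 at an unadjusted p below 0.05. That comparison kept only Homo 1 and Homo 2, the shallowest libraries, and dropped the Homo list most like WT.

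None of the regions named next passed the adjusted threshold with all 7 lists (limma, adjusted p 0.436 to 0.904). They are those with the largest rank differences among regions whose groups did not overlap. At the start of Abcf2, an ATP-binding cassette protein, the rank percentile among the shared regions was 84.7, 74.8, 72.7 and 87.7 in WT, and 8.42, 6.26 and 65.3 in Homo. The fold there was 10.5, 9.12, 8.89 and 12.2 in WT and 5.26, 5.17 and 9.34 in Homo. The first 2 Homo lists were far below WT and Homo 3 just below.

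Nelfa, a subunit of the NELF complex that pauses RNA polymerase II, had percentiles of 75.6, 82.6, 78.9 and 81.0 in WT and 30.1, 4.93 and 53.4 in Homo. At the start shared by Hs2st1, a heparan sulfate sulfotransferase, and Selenof they were 83.8, 85.3, 74.8 and 84.8 in WT and 40.5, 24.3 and 49.6 in Homo. Of the named regions lower in Homo, these 2 had the widest gap between the groups. Map7 (a microtubule-binding protein), Tubb4b (a beta tubulin), Ints10 (an Integrator subunit) and Cggbp1 with Zfp654 showed the same order with narrower gaps. At Cggbp1 with Zfp654 the lowest WT value was 32.9 and the highest Homo value 31.0. Of these, Abcf2, Nelfa and Hs2st1 with Selenof were among the 7 that passed without Homo 3 (limma, adjusted p of 0.0155, 0.0382 and 0.0363). Leaving out Homo 3 removes the Homo list most like WT and keeps Homo 1 and Homo 2, the shallowest libraries. These named regions were also picked by their ranks in the same data, so passing then is no separate support. The rest of the 7 were Desi2, Sde2 and an intergenic region, lower in Homo, and Chsy3. The gene nearest the intergenic region, G6pd2, lay 1765671 bp away. The rank percentile of that region was 98.9 in every WT list and 97.7 and 98.3 in Homo 1 and Homo 2. Its folds overlapped, at 29.5, 32.1, 33.9 and 33.5 in WT and 31.1 and 33.0 in Homo 1 and Homo 2.

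Higher ranks in Homo were led by Chsy3, a chondroitin sulfate synthase. Its percentiles were 0.739, 5.57, 0.246 and 3.10 in WT, and 72.6, 54.6 and 37.5 in Homo, so the region was among the weakest shared regions in each WT list and in the middle or above in Homo 1 and Homo 2. Its rank score differed by 2.31 ± 0.504 (SE; limma adjusted p = 0.436). Trim13, a ubiquitin ligase, had 11.6, 1.33, 0.0493 and 2.91 in WT and 23.4, 65.0 and 47.9 in Homo. At Cited2, a CBP/p300-binding co-regulator, they were 7.73, 6.75, 24.6 and 27.4 against 80.6, 39.9 and 51.5. The start shared by Gnl3 and Pbrm1 had 36.4, 20.5, 9.16 and 47.7 in WT and 71.7, 67.0 and 70.9 in Homo. Pbrm1 encodes a subunit of PBAF, the SWI/SNF form that lacks ARID1A, and Gnl3 is a nucleolar growth gene. Ywhab, Rcn2, Mgll (monoacylglycerol lipase) and Med17 (a Mediator subunit) completed the 8.

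**Figure D4:**
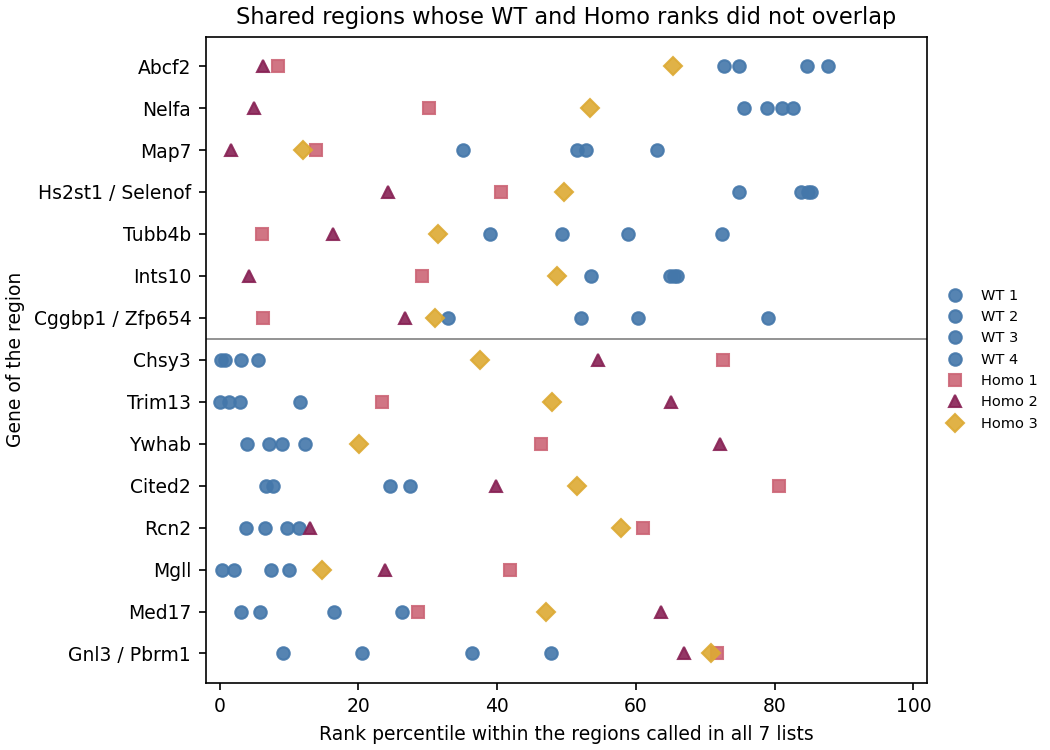
Rank percentile within the 1015 regions called in all 7 lists (horizontal axis, 100 = strongest) for 15 regions whose WT and Homo values did not overlap, 1 symbol per library. Homo 3 is the Homo value nearest to WT at Abcf2, Nelfa and Chsy3, and all 3 Homo values cluster near 70 at Gnl3 / Pbrm1.

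Arid1a itself spans chr4:133679008-133756769. The region chr4:133754054-133754567, 69 bp from an annotated start inside the gene, had folds of 5.64, 6.78, 4.68 and 5.28 in WT and 6.88 in Homo 3, and was not called in Homo 1 or Homo 2. Homo 1 had a separate region just outside the gene, chr4:133757130-133757427, with a fold of 4.46. The labels do not name the deleted exons, so neither region checks the deletion. Both Cebpb regions, which share sequence with the LAP promoter, were called in all 7 lists. The Alb gene-end region was called in WT 2 (6.15) and Homo 3 (8.98), and the Myc region in WT 4 (5.26) and Homo 1 (6.95). Transgene copies could add reads at these 3 genes, and their part was not tested.

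The gene lists followed the length of the peak lists, with all genes as background. A gene-end region was called at 36.0%, 33.0%, 28.3% and 34.2% of 21631 genes in WT 1 to WT 4 and at 16.2%, 6.90% and 37.2% in Homo 1 to Homo 3. Of 5135 genes with a region in 4 of 4 WT lists, 2079 (40.5%) kept it in Homo 3 alone and 889 in all Homo lists. No list was tested against the rest, and its members' counts are a description.

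SWI/SNF subunits had gene-end regions at 20, 20, 16 and 20 of 26 genes in WT and at 13, 1 and 20 in Homo. Of the 13 with a region in every WT list, 5 kept it in Homo 3 alone, near the 40.5% over all genes. They were Brd7, Actl6a, Smarcd1, Smarcb1 and Bcl7b. Smarcb1, a core subunit, had folds of 7.14, 9.27, 5.24 and 7.22 in WT and 6.91 in Homo 3. Smarca4, the ATPase, had 8.38, 6.98, 7.45 and 8.14 in WT, 5.86 in Homo 1 and 8.30 in Homo 3. Arid1b, the paralogue of Arid1a, was called at a gene end in WT 2 (4.49), WT 4 (4.85) and Homo 1 (4.84), with no separation of the groups. Pbrm1 was the 1 subunit called in all 7 lists.

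MYC partners and growth genes had regions at 27, 24, 25 and 26 of 32 genes in WT and 14, 6 and 27 in Homo. The 4 held by all lists were Mxd1, Npm1, Odc1 and Gnl3. Of 24 with a region in every WT list, 9 kept it in Homo 3 alone, near the 40.5% over all genes. They included Ncl and Fbl, nucleolar proteins of ribosome production, and Mnt, a MAX-binding repressor. Ncl had folds of 7.06, 7.57, 6.46 and 7.05 in WT and 9.41 in Homo 3. Max, the obligate partner of MYC, was called in all but Homo 2, with 8.41 in Homo 1 and 10.97 in Homo 3.

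Cell cycle genes had regions at 24, 24, 14 and 23 of 32 genes in WT and at 6, 1 and 23 in Homo. Haspin was the member called in 4 of 4 WT and no Homo lists, and 8 of 14 were kept in Homo 3 alone, against 40.5% over all genes. Among them, Ccne1 (cyclin E) had folds of 6.58, 6.08, 5.88 and 6.10 in WT and 8.97 in Homo 3. E2f1 had 6.22, 5.30, 6.02 and 5.93 in WT and 5.88 in Homo 3. Neither gene was called in Homo 1 or Homo 2, and Homo 1 kept Pcna, Aurka, Mcm7, Ccne2, Mcm6 and Ccna2. Of the cell cycle genes, Ccna2 was the 1 in every list.

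DNA repair genes had 30, 27, 25 and 29 of 36 in WT and 13, 10 and 31 in Homo, with Rad18 WT-only. Ciliary and centrosomal genes had 26, 27, 24 and 27 of 40 in WT and 12, 6 and 26 in Homo, with Tmem231 WT-only. Mitochondrial ribosomal proteins had 24, 21, 21 and 23 of 35 in WT and 7, 6 and 25 in Homo, with Mrpl1 WT-only. Cytosolic ribosomal proteins had 35, 32, 28 and 33 of 40 in WT and 22, 4 and 33 in Homo. In each of these 4 lists Homo 1 and Homo 2 lay below every WT library and Homo 3 within or above the WT values.

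Liver transcription factors had regions at 10, 10, 8 and 8 of 26 genes in WT and at 6, 3 and 11 in Homo. That is 38.5%, 38.5%, 30.8% and 30.8% in WT and 23.1%, 11.5% and 42.3% in Homo, near the shares over all genes in WT and Homo 3. Cebpb, Hhex and Zbtb20 were in all 7 lists. Foxa3, a liver pioneer factor, had 6.78, 5.67, 6.16 and 4.90 in WT and 8.50 in Homo 3, and Ppara, the regulator of fatty acid oxidation, had 5.78, 6.98, 7.86 and 6.86 in WT and 7.32 in Homo 3. Neither was called in Homo 1 or Homo 2. Secreted hepatocyte proteins had 9, 7, 2 and 6 of 25 in WT and 1, 0 and 9 in Homo, and cytochrome P450 and drug metabolism genes 2, 3, 1 and 2 of 24 in WT and 1, 1 and 3 in Homo.

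Of the metabolic lists, glucose and lipid genes had 15, 11, 10 and 10 of 24 in WT and 7, 3 and 14 in Homo. Fasn and Acaca, enzymes of fatty acid synthesis, were in all 7 lists. Amino acid and urea cycle enzymes had 8, 4, 4 and 6 of 20 in WT and 2, 2 and 8 in Homo. Fetal liver and oncofetal genes had 3, 1, 4 and 4 of 16 in WT and 0, 0 and 3 in Homo. For these lists too, Homo 3 lay within the WT range or at its top.

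Immediate early genes, which cells can induce when tissue is handled, had 16, 19, 17 and 19 of 28 in WT and 12, 5 and 21 in Homo. Jun was in all 7 lists, with folds of 5.95, 4.82, 4 and 4.50 in WT and 5.04, 4.49 and 5.01 in Homo. Atf3 was missing from Homo 1 and Homo 2. Genes of the p53 pathway and apoptosis had 12, 9, 10 and 12 of 20 in WT and 3, 4 and 12 in Homo. Housekeeping genes had 22, 19, 18 and 21 of 30 in WT and 13, 3 and 24 in Homo; Homo 1 and Homo 2 were below every WT list here as well.

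The series names metastasis, so 2 lists address it. Genes reported to restrain metastasis had regions at 10, 8, 8 and 9 of 20 in WT and 4, 0 and 11 in Homo. These counts include Mta1, which is better known for promoting metastasis. It was called in WT 1, WT 3 and WT 4 and in no Homo list. Of the 7 with a region in every WT list, 3 kept it in Homo 3 alone, near the 40.5% over all genes. These were Cd82 (a tetraspanin), Brms1l and Pebp1, and Cd82 had 6.63, 7.59, 5.47 and 7.98 in WT and 7.63 in Homo 3. Genes of EMT, migration and invasion had 5, 6, 5 and 7 of 25 in WT and 5, 1 and 7 in Homo, so that Homo 1 lay within the WT range here, as in the cytochrome P450 list. Cdh2 (N-cadherin) was called only in Homo 1, with a fold of 5.25. Snai1, the EMT repressor, was called in every list but Homo 1, with 6.57, 7.60, 7.04 and 8.44 in WT, 5.56 in Homo 2 and 9.42 in Homo 3.

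**Figure D5:**
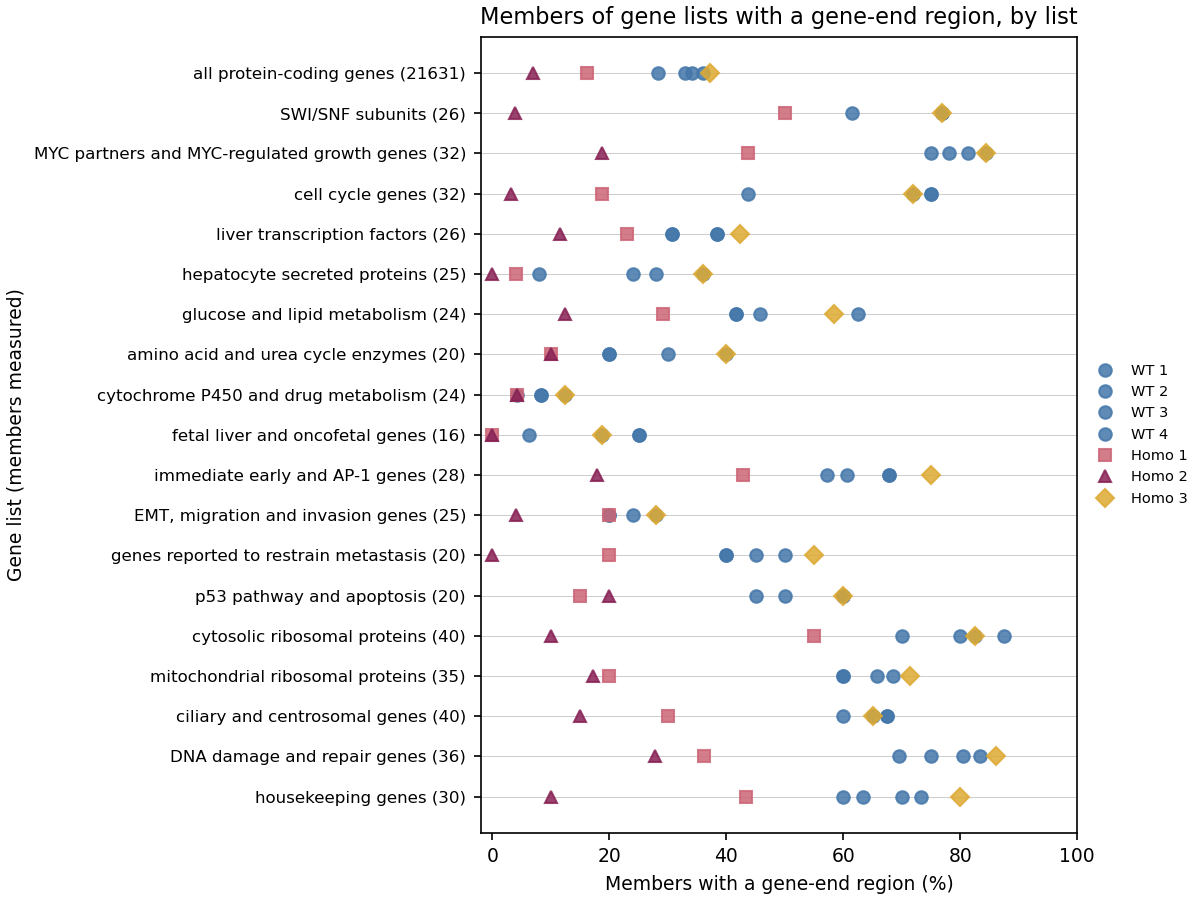
Members of each gene list with a gene-end region (horizontal axis, percent of members), 1 symbol per library, with all protein-coding genes in the top row. Homo 3 (37.2% of all genes) lies with the WT libraries (28.3% to 36.0%) and Homo 1 and Homo 2 (16.2% and 6.90%) to their left.

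Markers of other cells were nearly absent. None of 12 lymphocyte and neutrophil, 10 endothelial or 10 stellate cell markers, the last with fibroblast genes, had a gene-end region in any of the 7 lists. The other 3 lists had 10 markers each. Spi1, of macrophages, was called in Homo 3. The erythroid gene Nfe2 was called in 2 WT lists (WT 1 and WT 2) and Homo 3. Of the cholangiocyte genes, Epcam was called in 2 WT lists (WT 3 and WT 4), while Onecut1 was called in Homo 3. Hepatocyte markers themselves were called at 4, 5, 0 and 2 of 12 in WT and 0, 0 and 4 in Homo. Hnf4a, a defining factor of hepatocytes, had no gene-end region in any list, and so the lists identify the labelled tissue only in part.

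Regions that no WT list held were counted per Homo list. Homo 1 had 185 of the 3771 joined regions it held (65.9% at gene ends), Homo 2 46 of 1733 (39.1%) and Homo 3 754 of 9492 (46.9%). Regions shared between Homo lists count in each. Over all 12147 regions, 68.2% were at gene ends. Homo 1 and Homo 2 shared 7 regions that no WT list held. Among them was the region at Sgpl1, the sphingosine-1-phosphate lyase, with folds of 6.92 and 6.37. The largest folds in a single list were 8.88 at Fra10ac1 in Homo 1, 8.12 in Zfp445 in Homo 2 and 10.4 at an intergenic region nearest Eci2 in Homo 3. Counted once, 903 regions without a WT call were in 1 of the 3 Homo lists (48.6% at gene ends), 38 in 2 and 2 in all 3. For comparison, 1515 regions without a Homo call were in 1 of the 4 WT lists (41.3% at gene ends).

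Promoter letters were counted in the 300-base RefSeq window of 17274 genes (250 bases before the start to 50 after), on both strands, and the motifs spelled here do not contain each other. The CCAAT box (CCAAT, bound by NF-Y) was in 39.4% of all promoters, in 38.3% of the 647 whose start lay in a region of all 7 lists and in 48.2% of the 1536 held by all WT lists and Homo 3 alone. The E-box CACGTG, bound by MYC with MAX, was in 8.05%, 9.74% and 14.3%. The cAMP response element TGACGTCA was in 2.39%, 2.47% and 5.27%. All 3 motifs were thus more frequent in promoters that Homo 1 and Homo 2 missed than in those that every list held. The NRF1 motif CGCATGCGC went the other way, at 2.45%, 8.66% and 6.18%. So did the searched motifs of ETS, AP-1, TBP, ZBTB33 and ZNF143, at 4.64% and 2.54% in the last groups for ZBTB33. The YY1 motif went with the first 3. The GC box GGGCGG was in 47.3%, 73.7% and 80.7%. No test was made, and the groups also differ in WT rank. Of the 17 promoters in WT-only regions, 14 had a GC box, 6 a CCAAT box, 4 the ETS motif CCGGAAG and 0 an E-box. Over the 3811 promoters whose start lay in a region of 4 of 4 WT lists, the shares were 78.0%, 43.6%, 23.6% and 11.8%. The 17 are too few to be set apart from these shares.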

How the data were processed

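Bowtie2, MACS2, deepTools and build mm10 are named, without versions, in the submitters' processing notes. The sources used here do not give peak settings, read filters, transposase shift or read totals. The authors deposited 1 list of called peaks per library, in which the fold ratio is the summit pileup plus 1 over the local background plus 1. The authors' deposited −log10 p and −log10 q values were computed by the peak caller from that pileup. The authors' deposited score was computed from the −log10 p and was not used. These values rank and filter peaks within a list.

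Python 3.11.15 (scipy 1.17.1) and R 4.3.3 with limma 3.58.1 were used. The pileup (a whole number) and its Poisson background were recovered for at least 99.9% of rows per list (tolerance 0.001 in −log10 p). Depth is the smallest background shared by 10 rows. Its precision limits each missing call: peaks near the threshold of 5 in −log10 p are lost first in shallow lists. For equal depth, pileups were scaled to Homo 2 and peaks under that threshold dropped. Genes were 21631 protein-coding genes of the RefSeq GRCm38.p6 table. It gives neither exons nor UTRs.

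Values per list were compared by exact permutation, and ranks within shared regions by limma (trend, Benjamini-Hochberg), which was tested on simulated data. Members, gene lists and motifs were chosen with earlier results of these data known. Named were WT-only regions with the highest median WT percentile (12 gene-end, 8 distal; beyond these, Rad18 and Auts2 were picked after values were seen), all Homo-only regions, the 8 largest non-overlapping rank differences each way (1 is not reported here), the 10 strongest WT regions missing from Homo 1 and Homo 2, and the largest folds in single Homo lists. List members were named for their role or pattern after their values were seen.

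Alternatives were a stricter q, equal depth, equal number, other windows and overlaps, another rank measure, the replicate number as a block, and each library left out. The Het lists were not used.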

Additional observations from a re-analysis of the deposited data

Results flagged for a closer look

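A check for a single library far from the rest of its group was run on 30 measures of the 4 WT lists, where chance flags about 1 in 20 groups. WT 3 stood apart in 3 of them. Its gap between distal and gene-end regions held was -9.16 percentage points, against -1.16, -1.56 and -2.21 in the other WT lists. It had gene-end regions at 16 SWI/SNF subunits, against 20 in each of the others, and at 14 cell cycle genes, against 24, 24 and 23. WT 3 was also the shortest WT list (6731 regions) and the shallowest (0.985 tags per 200 bp). With the lists scaled to equal depth, an alternative chosen after seeing the data, its gap was -4.70 points against -0.573, -1.08 and -0.952 in WT 1, WT 2 and WT 4. It then had 13 SWI/SNF subunits against 14 in each other WT list, and 13 cell cycle genes against 17 in each. The 3 Homo lists are too few for this check.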

How the results depend on the processing

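Over the results on whole lists, 70 values under alternatives kept their direction, their side of the threshold and, for counts, lay within 1.5 times. A further 13 moved and 3 reversed. With 1 library left out, the smallest possible p of the exact permutation tests was 0.0667 or 0.1. It was 0.25 with the replicate number as a block. Those tests could not fall below 0.05, so their place in this tally speaks for direction only. The 35 WT-only regions became 72 at equal depth and 18 with equal numbers, and 41 to 2104 with 1 library left out. The 2 Homo-only regions became 7 with equal numbers and 3 to 30 with 1 library left out. Rank changes past the threshold numbered 0 to 7 (7 without Homo 3). The rank-similarity difference ran from -0.0121 to 0.168 and reversed without WT 1 (-0.0112), WT 2 (-0.0111) or WT 4 (-0.0121). Other ranges with 1 library left out were -5470 to -1551 regions, -3.88 to -0.272 points of gene-end share, 3.37 to 10.6 points of the retention gap and 0.0252 to 0.274 of Jaccard difference. Counting annotated starts as gene ends, an alternative chosen after seeing the data, gave a retention gap difference of 10.05 (exact permutation p = 0.171). The causes were not tested. Of 8 WT-only genes followed, Haspin and Tmem231 were still in 4 WT lists at equal depth and in 0 with equal numbers. The others lost WT calls at equal depth: Cklf, Klc3 and Mrpl1 were in 3 WT lists and Nans, Capn5 and Rad18 in 2. With equal numbers Cklf was in 2, Klc3 in 1 and the rest in 0. At the stricter q Cklf and Capn5 were in 3.

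With the replicate number as a block (numbers 1 to 3, WT 4 left out), the difference in regions was -3138 (exact permutation p = 0.5, smallest possible 0.25), that in gene-end share -1.57 (exact p = 0.75), and limma called 0 regions with 21 at an unadjusted p below 0.05. Deviations of same-numbered lists correlated at -0.199, -0.0583 and -0.200, and those of differently numbered lists at -0.120 to 0.269. These values give no sign that the numbers pair the samples, but so few weak correlations cannot exclude it.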

Other observations

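The share of the regions in 4 of 4 WT lists that Homo 1 held differed between chromosomes, a split looked at after the main values were known. It was lowest on chromosome 7, at 39.6% of 381 regions (95% Wilson interval 34.8% to 44.6%), and highest on chromosome 3, at 64.2% of 246 (58.1% to 70.0%). On chromosome 15, which carries Myc, it was 44.3% of 201 (37.6% to 51.2%). Homo 2 held 21.5%, 30.1% and 19.9% on chromosomes 7, 3 and 15, and Homo 3 held 97.6%, 98.8% and 100%. Neighbouring regions are not independent, so the intervals cover counting error only, and no test was made.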
